A study of Homo sapiens with 6 samples.

Results

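The mRNAs of 9 proteins tied to the loading of RNA into extracellular vesicles (EVs) were followed in EVs of CD47-deficient and WT Jurkat T cells. The genes are YBX1, YBX3, NSUN2, SYNCRIP, SSB, ELAVL1, AGO2, MEX3C and MVP, named for this role with earlier results of these data known. Each had exactly 1 probe set listed with its symbol alone, so 9 of the 19460 probe sets with a single symbol, and 9 of 18417 genes, were described. Of the 1754 probe sets listed with several symbols, 0 named a member. The tested EVs came from JinB8, a somatic mutant of Jurkat that lacks CD47 (CD47-), and the others from WT Jurkat, a human T cell leukemia line, with 3 arrays each. Both lines were kept for 24 to 48 h in serum-free HITES medium, which holds insulin, transferrin, selenite and hydrocortisone, and 300 ng of total EV RNA was labeled for each Affymetrix whole-transcript human gene array. EVs were precipitated with Exo-quick or Exo-spin, and the labels do not say which kit any array had. JinB8 is 1 mutant line, so the loss of CD47 cannot be told apart from other differences between the lines. The labels call the arrays cell culture replicates without naming separate cultures, so the p values may measure a technical spread.

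EVs carry RNA out of the cell, where other cells can take it up. Part of that RNA is bound by proteins thought to pick it for release. YBX1 is a cold shock domain protein that binds mRNA and sorts miR-223 into exosomes of a human cell line, and YBX3 is its close relative. NSUN2 places the methyl group of 5-methylcytosine, a mark that YBX1 can bind. SYNCRIP and the La protein, encoded by SSB, bind short motifs in microRNAs and were each tied to their sorting, La for miR-122. ELAVL1 (HuR) binds AU-rich RNA, AGO2 carries microRNAs, MEX3C was tied to the sorting of miR-451a together with the AP-2 adaptor, and MVP is the main protein of vault particles, tied to miR-193a. The arrays measured the mRNAs of these proteins inside EVs, not the proteins.

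The mature microRNAs for which 3 of these sorting proteins are known have the seed, bases 2 to 8, in capitals (RefSeq, GRCh38.p14). For miR-451a no mature sequence was printed.
hsa-miR-223-3p (YBX1): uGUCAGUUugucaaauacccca
hsa-miR-122-5p (La): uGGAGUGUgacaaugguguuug
hsa-miR-193a-3p (MVP): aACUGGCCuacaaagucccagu
The 3 seeds differ, and the bases that YBX1, La or MVP bind were not marked. YBX1 itself was named for binding the Y-box, a DNA element that holds the CCAAT box in reverse. The region before its own start site holds several CCAAT boxes, and the whole Y-box was not searched for. The 250 bases before the listed start sites of YBX1 and SSB, the members that passed the test, and of YBX3, the relative of YBX1 that did not, are therefore shown 5′ to 3′ along each gene's strand. Capitals mark the letters CCAAT or, for the other strand, ATTGG.
YBX1, chr1:42682168-42682417, plus strand: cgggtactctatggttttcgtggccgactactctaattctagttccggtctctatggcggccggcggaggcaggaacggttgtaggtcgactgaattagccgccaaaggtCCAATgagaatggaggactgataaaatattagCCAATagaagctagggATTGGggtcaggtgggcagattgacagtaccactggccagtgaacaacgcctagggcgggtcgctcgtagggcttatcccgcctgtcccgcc
SSB, the first of 2 listed start sites, chr2:169798621-169798870, plus strand: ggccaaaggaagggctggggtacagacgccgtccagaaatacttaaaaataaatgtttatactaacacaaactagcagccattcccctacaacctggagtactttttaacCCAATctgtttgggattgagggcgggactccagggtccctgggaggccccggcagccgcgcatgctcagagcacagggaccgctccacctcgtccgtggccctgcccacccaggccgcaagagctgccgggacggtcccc
YBX3, chr12:10723324-10723573, minus strand: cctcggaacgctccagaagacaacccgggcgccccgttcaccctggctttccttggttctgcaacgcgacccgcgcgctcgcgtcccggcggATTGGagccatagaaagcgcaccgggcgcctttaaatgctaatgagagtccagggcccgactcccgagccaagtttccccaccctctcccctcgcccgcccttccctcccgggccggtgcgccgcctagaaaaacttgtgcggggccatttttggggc
Promoter sequences of the GRCh38.p14 RefSeq table were matched for 6 of the 9 members, not for ELAVL1, AGO2 and NSUN2. YBX1 had 3 CCAAT matches, whose leftmost bases lay 140, 108 and 92 bases before the start site, the last on the other strand. SSB had 1 in the region shown and 0 before its other start site, and YBX3 had 1. Of the other matched members, whose regions are not shown, MEX3C had 2, SYNCRIP 0, and MVP 1, 0 and 0 before its 3 listed start sites. At least 1 match was present in 32.0% of 35116 regions of the same length, and 3 or more in 2.93%, so a single match is common. The other motifs searched on both strands were GGGCGG (42.6% of regions), CACGTG (6.34%) and TATAAA (10.7%). YBX1 and YBX3 had 1 GGGCGG each and neither CACGTG nor TATAAA. SSB had 1 GGGCGG and 1 TATAAA in the region shown, and 2 GGGCGG and 1 CACGTG before its other start site. A match describes letters only.

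Of the 9 members, 2 were higher in CD47- than in WT EVs, YBX1 and SSB, 0 were lower and 7 did not pass the test (limma, adjusted p under 0.05). Of all 18417 genes, 0.668% were called higher and 0.0163% lower. Because the members were chosen with earlier results of these data known, setting them beside all genes is a description, not a test. The median log2 fold change was 0.13 over the 9 members and 0.0029 over all genes, and 8 of the 9 members and 9444 of all genes had a value above 0. The values are log2 levels made by robust multi-array average (RMA), so each is a relative level within the RNA of a preparation. More vesicles that hold an mRNA and more copies per vesicle cannot be told apart. The 3 arrays of a group limit the precision.

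**Figure D1:**
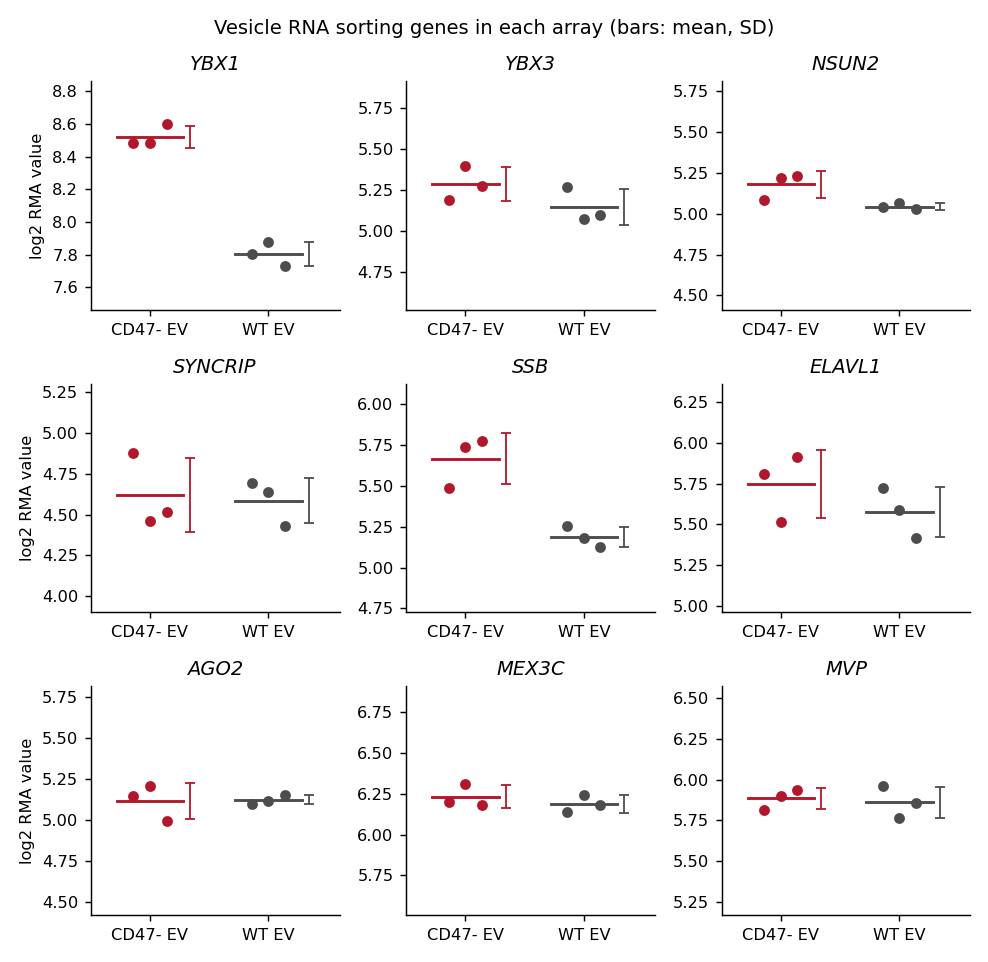
log2 RMA value (vertical axes, each spanning 1.4 units around the gene) of the 9 members in the 3 CD47- and 3 WT EV arrays (points), with the mean (line) and SD (error bar) of each group. The groups lie apart for YBX1 and SSB, narrowly for NSUN2, and overlap for the other members. Of all genes, 12.8% have groups that lie apart.

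YBX1, the RNA binding protein that gives the group its name, had log2 values of 8.48, 8.48 and 8.60 in CD47- EVs, against 7.80, 7.88 and 7.73 in WT EVs. All 3 CD47- arrays lay above all 3 WT arrays, and the spread within each group was small beside the gap. Groups lay apart, in either direction, for 12.8% of all genes. The first 2 CD47- values are identical in the deposited table, as happens for 27 of 33297 probe sets between these arrays. YBX1 averaged 8.52 ± 0.07 in CD47- EVs and 7.80 ± 0.07 in WT EVs (SD, n = 3 arrays each), a log2 fold change of 0.72 (standard error 0.08), or 1.64-fold (95% interval 1.46 to 1.85, adjusted p = 6.60e-04 from limma). Among all genes it ranked 21 by p and 50 by the size of its increase. RefSeq lists 10 YBX1 pseudogenes, and whether probes of the YBX1 probe set also match them was not tested.

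YBX3, the other Y-box protein of the group, had log2 values of 5.19, 5.40 and 5.28 in CD47- EVs, against 5.27, 5.07 and 5.10 in WT EVs. The lowest CD47- array lay below the highest WT array. Its log2 fold change was 0.14 (95% interval -0.05 to 0.33, adjusted p = 0.766 from limma). Leaving out 1 array gave 0.09 (without CD47- replicate 2) to 0.20 (without WT replicate 1). NSUN2, the methyltransferase, had log2 values of 5.08, 5.22 and 5.23 in CD47- EVs, against 5.04, 5.07 and 5.03 in WT EVs. Its groups did not overlap, as for 12.8% of all genes, and its log2 fold change of 0.13 (95% interval -0.03 to 0.30, adjusted p = 0.734 from limma) did not pass.

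SSB encodes La, which binds the 3′ ends of new small RNAs in the nucleus besides its part in vesicles. It had log2 values of 5.49, 5.74 and 5.77 in CD47- EVs, against 5.25, 5.18 and 5.13 in WT EVs. The groups lay apart, as for 12.8% of all genes, and CD47- replicate 1 came nearest to the WT arrays. SSB averaged 5.66 ± 0.16 in CD47- EVs and 5.19 ± 0.06 in WT EVs (SD, n = 3 arrays each), a log2 fold change of 0.48 (standard error 0.09), or 1.39-fold (95% interval 1.22 to 1.59, adjusted p = 0.0299 from limma). The call was narrow. It was lost without CD47- replicate 2 (adjusted p = 0.129), CD47- replicate 3 (0.155), WT replicate 1 (0.0605), WT replicate 2 (0.0947) or WT replicate 3 (0.164, all limma), and held without CD47- replicate 1 (0.0111), while the log2 fold change stayed between 0.42 and 0.57.

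The other RNA binding proteins did not pass. SYNCRIP, also known as hnRNP Q, had log2 values of 4.88, 4.46 and 4.52 in CD47- EVs, against 4.69, 4.64 and 4.43 in WT EVs. Its groups overlapped widely, with CD47- replicate 1 above the other arrays. The log2 fold change was 0.03 (95% interval -0.21 to 0.28) and had the other sign without CD47- replicate 1 (-0.10) or WT replicate 3 (-0.05). ELAVL1 had log2 values of 5.81, 5.52 and 5.91 in CD47- EVs, against 5.72, 5.59 and 5.42 in WT EVs. It varied as much within the groups as between them, with a log2 fold change of 0.17 (95% interval -0.07 to 0.41). That value was 0.08 without CD47- replicate 3, 0.09 without WT replicate 3 and 0.28 without CD47- replicate 2.

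AGO2, the Argonaute protein, had log2 values of 5.15, 5.20 and 4.99 in CD47- EVs, against 5.10, 5.11 and 5.15 in WT EVs. CD47- replicate 3 was the lowest of the 6 arrays and CD47- replicate 2 the highest. The log2 fold change was -0.0076 (95% interval -0.18 to 0.16), and centering the arrays on the olfactory receptor genes turned it to 0.05. MEX3C, which has KH domains and a ubiquitin ligase domain, had log2 values of 6.20, 6.31 and 6.18 in CD47- EVs, against 6.14, 6.24 and 6.18 in WT EVs. Its groups overlapped, and its log2 fold change was 0.04 (95% interval -0.12 to 0.21). MVP had log2 values of 5.82, 5.90 and 5.94 in CD47- EVs, against 5.96, 5.77 and 5.85 in WT EVs. Its highest value was in a WT array, and its log2 fold change was 0.02 (95% interval -0.15 to 0.20). Adjusted p for these 5 members lay between 0.786 and 0.993 (limma), which does not show that their levels were equal in both EVs.

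**Figure D2:**
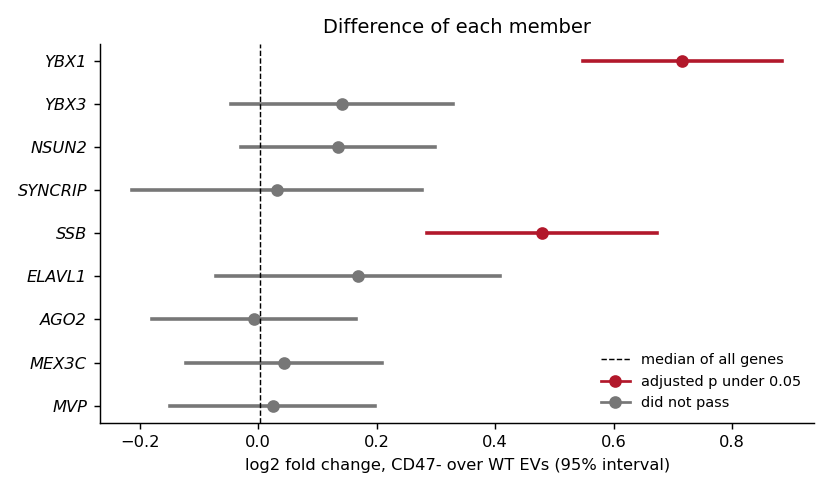
log2 fold change of CD47- over WT EVs (horizontal axis) for the 9 members, with the 95% interval from limma (bars) and the median of all genes (dashed line). The intervals of YBX1 (0.55 to 0.88) and SSB (0.28 to 0.67) lie to the right of 0, and the other 7 reach across it.

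The signal of the members was gauged against 341 olfactory receptor genes, whose mRNAs a T cell should lack. Their median was 5.49 and their 95th percentile 6.79. The gauge is rough, since binding strength varies from probe to probe. YBX1, with a mean of 8.16 over the 6 arrays, lay above all of them. MEX3C, MVP and ELAVL1 lay above 79.2%, 65.4% and 56.6% of the olfactory receptor genes, and SSB, at 5.43, above 48.1%. The other 4 members lay above 22.0% to 42.5%. Only YBX1 exceeded the 95th percentile, so this gauge places no other member clearly above background. Calls depended on this level over all genes. Of the 864 genes above the 95th percentile 6.94% were called higher, of the 7249 above the median 1.46%, and of the 11168 at or below the median 0.152%. YBX1 belongs to the first of these classes and SSB to the last.

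Differences between the changes of members were measured within arrays, by taking another member's log2 value from that of YBX1 in each array. The gap was larger in every CD47- array than in every WT array for all 8 other members. Because the groups of YBX1 itself lay apart, this count largely restates the rise of YBX1. The share of all genes that would give the same result was not computed. For ELAVL1, MVP and MEX3C, the members besides YBX1 above the median of the gauge, the mean gap between groups was 0.55, 0.69 and 0.67 on the log2 scale. SSB, YBX3, NSUN2, SYNCRIP and AGO2 lay below that median. A dim probe set can understate a change, and the gauge placed none of the 8 other members clearly above background. For none of the 8, ELAVL1, MVP and MEX3C included, does the gap therefore show that YBX1 rose more than the member did. Each of the 8 exact two-sided permutation tests gave p = 0.1, the smallest that 3 arrays against 3 allow, so this test cannot pass at 0.05.

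Related genes were grouped by the roles of the members, and 61 of the 70 listed genes had a probe set with 1 symbol. None of the 61 was called higher or lower (limma, adjusted p under 0.05), which is near the 0.684% called of all genes. Their median log2 fold change was 0.02, and 26 of the 61 lay above the median of the olfactory receptor genes. Without adjustment, 6 of the 61 had p under 0.05 with a higher and 2 with a lower level, against 5.16% and 2.87% of all genes. The 6 were HNRNPK, PCBP2, ALYREF (0.34), AP2M1, CARHSP1 (0.21) and TNRC6B (0.20), and the 2 were ANXA2 (-0.21) and LARP6, with log2 fold changes in parentheses where they are not given below. Without shared variance 0 of the 9 members and 1 of all genes passed after adjustment. Among 5 other cold shock domain proteins, the germ cell protein YBX2 had a log2 fold change of 0.08 (95% interval -0.11 to 0.26). The 14 measured proteins of other vesicle sorting reports had a median of 0.05. HNRNPA2B1, which sorts microRNAs with a short motif, had a log2 fold change of 0.20 (95% interval -0.01 to 0.40). HNRNPK (0.68, standard error 0.16, adjusted p = 0.0947) and PCBP2 (0.47, standard error 0.11, adjusted p = 0.0999, limma), both poly(C) binding proteins, came nearest to passing and were singled out after their values were seen.

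The partners of the other members gave small values of either sign, except that all 7 of the MEX3 and AP-2 list were above 0 (median 0.12). Of 12 Argonaute and microRNA pathway genes, AGO1, AGO3 and AGO4 had log2 fold changes of -0.09, 0.13 and -0.07, and the list had a median of -0.02. For the vault particle, PARP4, an enzyme of the vault, had 0.0035, and the vault RNAs VTRNA1-1, VTRNA1-2 and VTRNA1-3 had -0.02, 0.04 and -0.05. The 6 measured genes of the La list, which holds La-related proteins and the Y RNA binding protein RO60, had a median of 0.03 and ran from -0.20 for LARP6 to 0.05 for RO60. The neuronal Hu proteins ELAVL2, ELAVL3 and ELAVL4 had -0.03, 0.0031 and 4.33e-04. Other RNA cytosine methyltransferases ranged from -0.15 to 0.15. The relatives MEX3B and MEX3D had 0.01 and 0.14, and the 5 AP-2 subunits lay between 0.05 and 0.26, with AP2M1 highest (adjusted p = 0.301 from limma). HNRNPR, the closest relative of SYNCRIP, had 0.06.

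**Figure D3:**
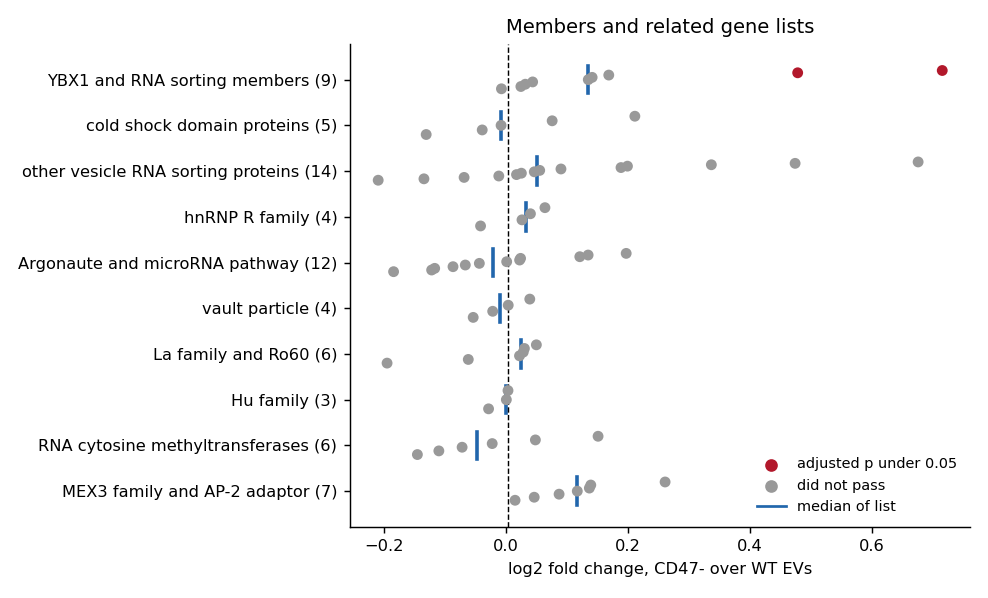
log2 fold change of CD47- over WT EVs (horizontal axis) for each measured gene (points) of the members and of 9 related lists, with the number measured in parentheses, the median of each list (blue bar) and the median of all genes (dashed line). YBX1 and SSB are the only points that passed (red), and the list medians lie between -0.05 and 0.13.

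The genes of the microRNAs named above were also on the array, although their probe sets do not separate mature from precursor forms and this small list was made after the files had been seen. MIR223 had log2 values of 3.99, 3.98 and 4.10 in CD47- EVs, against 4.03, 4.02 and 3.98 in WT EVs, and a log2 fold change of 0.01. MIR122 had a log2 fold change of 0.18 (95% interval -0.02 to 0.37), MIR193A of 0.12 and MIR451A of -2.77e-04. None of the 4 passed (limma, adjusted p from 0.677 to 1.00). MIR451A lay below all olfactory receptor genes, MIR122 above 0.587% and MIR223 above 11.4% of them, so a change in these 3 might not be detectable here. MIR193A lay above 92.1% of them, still below their 95th percentile of 6.79.

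The 5 genes whose profile over the 6 arrays, each less its own mean, lay nearest to that of YBX1 by Euclidean distance were GNB1, LEF1, ECH1, RPL5 and RPS4X. The distances ran from 0.123 for GNB1 to 0.177 for RPS4X. GNB1 encodes a G protein beta subunit, LEF1 a transcription factor of T cells, ECH1 an enzyme of fatty acid oxidation, and RPL5 and RPS4X ribosomal proteins. Of the other members SSB was nearest to YBX1, at a distance of 0.357 and rank 64 among genes, and AGO2 farthest, at 0.930. The likeness was measured on the arrays that gave the fold changes and is a description.

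**Figure D4:**
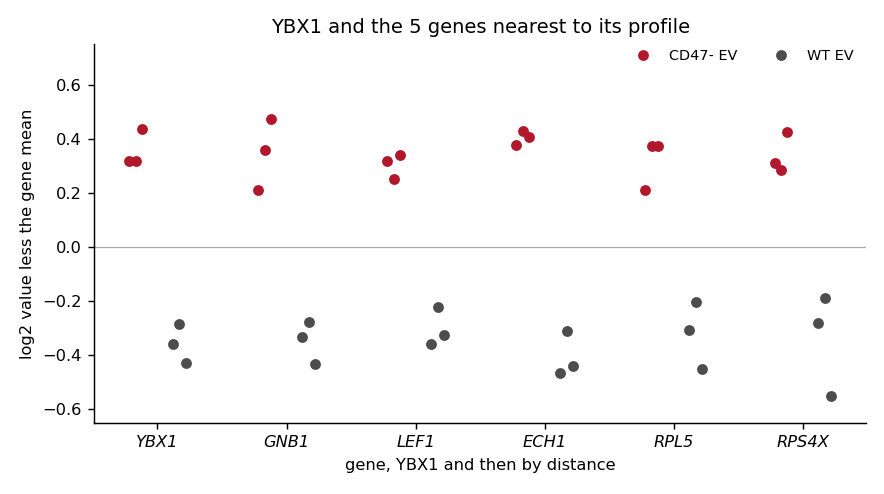
log2 value less the gene's mean over 6 arrays (vertical axis) in CD47- EVs (red) and WT EVs (grey) for YBX1 and the 5 genes nearest to it, 1 point for each array. In each of the 6 genes the 3 CD47- arrays lie above 0 and the 3 WT arrays below 0.

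The call for YBX1 held without each array in turn (log2 fold change 0.68 to 0.75, adjusted p 0.00249 to 0.00758 from limma), among the brighter genes and under every scaling tried, with 0.62 after a further quantile normalization and 0.78 after centering on the olfactory receptor genes. It was lost only in a per-gene test with unshared variance (adjusted p = 0.335). For SSB the same test gave an adjusted p of 0.492.

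**Figure D5:**
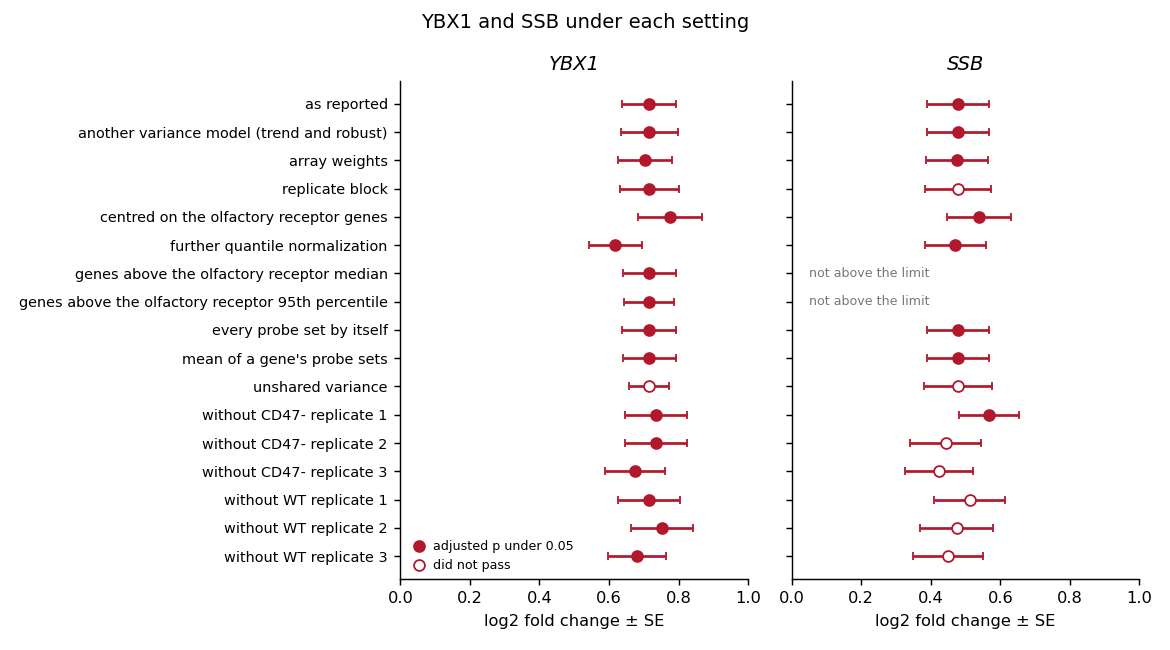
log2 fold change of CD47- over WT EVs with its standard error (horizontal axes) for YBX1 and SSB as reported and under 16 other settings (rows). Filled points passed at an adjusted p under 0.05, and SSB is not above the level limit of 2 settings.

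As facts of the whole series, the medians of the arrays were close (5.08 to 5.14), and Pearson's r over genes was 0.981 to 0.989 for the array pairs. CD47 itself had log2 values of 4.58, 4.67 and 4.94 in CD47- EVs, against 4.72, 4.69 and 4.72 in WT EVs (log2 fold change 0.02, adjusted p = 0.987 from limma), so this probe set does not check the labels. Of 10 T cell markers, 6 exceeded the median of that gauge and 2, CD7 and LCK, its 95th percentile. Of markers for B cells, monocytes, erythroid cells and platelets, and liver, 7 of 20 exceeded the median and 0 the 95th percentile, and of 6 epithelial and fibroblast markers 4 and 2 did. The mean log2 level of the T cell markers was 5.99 to 6.03 in CD47- EVs and 5.79 to 5.93 in WT EVs, without overlap, and none of the 10 passed. That of the 5 liver markers was 4.73 to 4.80 in CD47- EVs and 4.81 to 4.90 in WT EVs, also without overlap. For the B cell, monocyte, erythroid and platelet, and epithelial and fibroblast markers the mean levels of the groups overlapped. The part of the markers in the results for YBX1 and SSB was not tested.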

How the data were processed

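RNA of EVs from 3 CD47- and 3 WT preparations was measured on Affymetrix human gene arrays. The values deposited by the authors are on the log2 scale; per the labels, RMA of Affymetrix Expression Console made them, by background correction, quantile normalization and summary of probe sets. Tool versions were not given in the sources used here. Gene names came from the platform annotation and RefSeq gene IDs (18389 of 18417 genes matched), and only probe sets with exactly 1 symbol were used. A gene with several probe sets (769 genes, no member among them) was represented by the brightest. No pseudocount and no filter was used. CD47- EVs were compared with WT EVs in limma 3.58.1 (R 4.3.3, lmFit and eBayes), Benjamini-Hochberg adjusted over all genes, at an adjusted p under 0.05. The step was tested on simulated data. Alternatives were another variance model, array weights, the replicate number as a block, other scalings, level limits, other uses of probe sets, unshared variance, an adjusted p under 0.1, and leaving out each array. The text names all members, their families, and the 5 genes nearest to YBX1. Members and lists were chosen with earlier results of these data known. No genome build is named for the values; coordinates belong to the RefSeq sequences.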

Additional observations from a re-analysis of the deposited data

How the results depend on the processing

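The log2 fold change of YBX1 stayed between 0.62 and 0.78 under all alternatives (0.68 to 0.75 without 1 array), and lost its call only with unshared variance (0.72, adjusted p = 0.335). The 2 member genes called became 1 to 2 without 1 array, 1 with the replicate number as a block, 1 among genes above the olfactory receptor median, 1 above their 95th percentile, where fewer members were tested (4 and 1), and 0 with unshared variance (3 members at an unadjusted p under 0.05). The 126 genes called became 240 after centering on the olfactory receptor genes, 81 above their 95th percentile, 205 at an adjusted p under 0.1, 1 with unshared variance, and 54 to 101 without 1 array (54 without WT replicate 3, 59 and 79 without CD47- replicates 3 and 2). Other causes were not tested. Arrays with the same number did not deviate together (r = 0.0241, -0.0165 and -0.037). This check gave no sign of pairing but cannot exclude it. With the replicate block the log2 fold change of YBX1 was 0.72 and it passed. The adjusted p of SSB was then 0.0634 (limma), and 109 genes were called. SYNCRIP, AGO2 and MVP, none of which passed, changed sign under 2, 3 and 2 alternatives. Dim probe sets limit what can be seen.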
